A study of Mus musculus with 15 samples.

Results

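Microglia derived from mouse embryonic stem cells (ESdM) and stimulated with interleukin 4 (IL4) were compared with untreated ESdM across all genes of an RNA-seq table. The comparison used the 3 libraries labelled IL4 and the 6 labelled unstimulated, 9 of the 15 libraries of the study, and took them by that label alone. ESdM are a cultured stand-in for microglia, the resident macrophages of the brain. They were made from C57BL/6-ATCC embryonic stem cells and kept in N2 medium. IL4 was given at 100 U/ml for 24 h, and the untreated cells received no stimulus. The other 6 libraries were stimulated for 24 h, 3 with LPS (500 ng/ml) plus IFNg (20 ng/ml) and 3 with TGFb (50 ng/ml). They entered the shared estimate of spread and the direct comparisons between stimuli. The replicate numbers below follow the order of the libraries of each group in the table and are not labels of the study. Whether the libraries within a group are separate cultures is not in the labels. The p-values below therefore compare a difference with the variation among these libraries alone, and that variation may be technical.

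IL4 binds a receptor made of the IL4 receptor alpha chain (Il4ra) and either the common gamma chain (Il2rg) or the IL13 receptor chain Il13ra1. Janus kinases bound to these chains phosphorylate STAT6, a transcription factor that then enters the nucleus. In macrophages and microglia this pathway is known for the alternatively activated state, with the arginine-cleaving enzyme arginase 1, the mannose receptor and other lectins, while SOCS proteins and CIS, the product of Cish, act as feedback inhibitors of cytokine receptors.

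Values are read counts divided by 1 factor per library, called normalized read counts below, and no value in the table is under 1, which is called the floor. The untreated libraries held 2682564 to 18676181 reads and the IL4 libraries 12986954, 5523959 and 14361911 reads. Of 15 genes that define microglia and macrophages 14 were in the table, and their summed value was 33193 to 35905 in the untreated libraries and 39383 to 40308 in the IL4 libraries. Among these markers 4 rose with IL4 and 0 fell. Those that rose include the macrophage surface gene Adgre1 (2998 ± 111 to 5684 ± 172, listed as Emr1), Aif1, which encodes the microglial marker IBA1 (24.8 ± 7.78 to 46.2 ± 4.69; adjusted p = 0.0503 to 0.0947 without IL4 replicate 1, 2 or 3 or untreated replicate 2 or 5) and the integrin gene Itgam. Csf1r, the receptor gene these cells need to survive, stood at 2626 to 2959 (median 2787) in the 6 untreated libraries and 3212, 2986 and 3092 in the 3 IL4 libraries (adjusted p = 0.531, or 0.0175 when the 9 libraries were fitted alone). No marker of pluripotent stem cells, neural progenitors or fibroblasts was in the table (0 of 8, 0 of 8 and 0 of 8 in it). The 2 astrocyte markers in the table summed to 39.6 to 80.9 untreated and 72.7 to 109 with IL4, with a rise of Aldh1l1 (31.3 ± 8.12 to 52.3 ± 8.26; adjusted p = 0.1 without IL4 replicate 1 and 0.0556 without IL4 replicate 2). The single granulocyte marker there, S100a8, fell from 7.21 ± 1.86 to 1.63 ± 1.03. None of the 1 neuron, 4 oligodendrocyte-lineage and 1 lymphocyte markers in the table passed. Of the 2 endothelial markers in it only 1 was tested, and that one did not pass. The part of other cells in the results was not tested, and in bulk RNA fewer cells of a type and less RNA per cell cannot be told apart.

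After 24 h with IL4 the largest rises were those of Arg1, Tlr8, Cish, Rnase2a and Lipn, each with a log2 fold change above 3. Among genes of the respiratory chain, the TCA cycle and fatty acid use 35 of 48, 14 of 24 and 17 of 36 rose and 0 fell, where 9.89% of all tested genes rose. Among genes of mitosis 34 of 36 fell, and among those of the phagocyte oxidase and antioxidant defence 10 of 24, where 7.33% of all tested genes fell. Of the inflammatory genes Tnf, Ccl3 and Tlr2 fell while Ccl2, Cd40 and C3 rose. For each gene described below as higher or lower, other than Pparg and Cst3, no IL4 value lay within the untreated range.

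Of 11138 genes tested, 1101 were higher with IL4 (9.89% of those tested) and 816 lower (7.33%), at a Benjamini-Hochberg adjusted p below 0.05. The counts of each gene list are to be read beside these shares. At least 2-fold changes were rarer: 85 genes rose (0.763%) and 29 fell (0.26%) by that much. The median log2 fold change of the genes that rose was 0.34 and of those that fell -0.33, and 78.2% and 86.0% of them moved by less than 1.5-fold. All libraries of the groups were apart for 1023 of the 1101 genes that rose and 696 of the 816 that fell. Over all tested genes 13% and 10% had non-overlapping groups in each direction. The separation and the test use the same libraries, so the first is no independent support for the second. The split between directions moved with the scaling. With each library rescaled to the same total, 744 genes were higher and 1448 lower (33.9% higher, against 57.4% as deposited), and with quantile normalization 929 were higher and 1031 lower (47.4%). Without IL4 replicate 2, the shallowest of the 3, 702 genes were higher and 428 lower. LPS+IFNg replicate 3 stood apart from the other 2 libraries of its group, and without it 1538 genes were higher and 1211 lower.

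**Figure D1:**
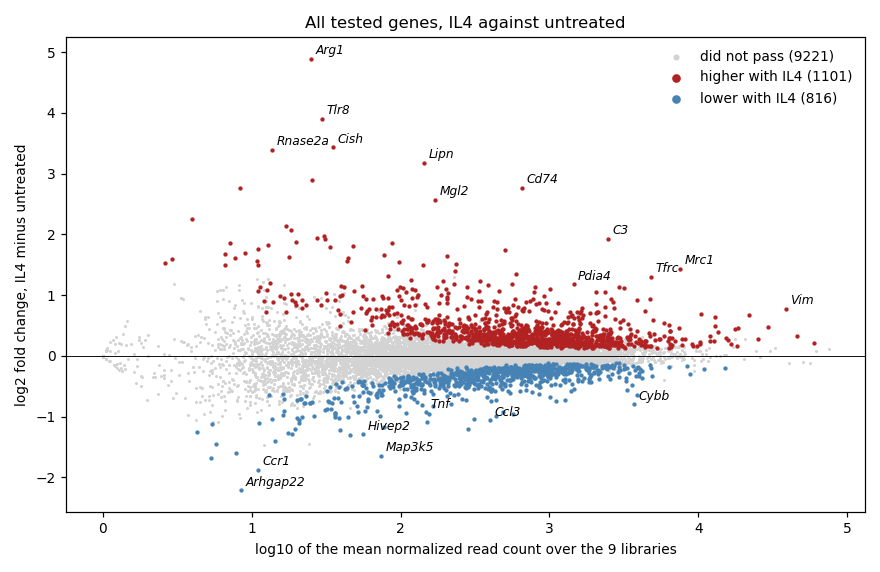
Each point is 1 of the 11138 tested genes. The horizontal axis is the log10 mean normalized read count over the 9 libraries and the vertical axis the log2 fold change, IL4 minus untreated. Genes with an adjusted p below 0.05 are red (1101 higher) or blue (816 lower), all others grey, and the tallest points are Arg1, Tlr8, Cish, Rnase2a and Lipn.

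Il4ra and Stat6 did not pass the test, while 2 feedback inhibitor genes, Cish and Socs1, rose from near the floor of the table. Il4ra had values of 83.9 to 120.5 (median 98.2) untreated and 81.9, 81.9 and 91 with IL4, and the groups overlapped (log2 fold change -0.19, adjusted p = 0.494). Stat6 had 1327 to 1429.7 (median 1402) untreated and 1346, 1329.9 and 1382 with IL4, again overlapping (-0.04, adjusted p = 0.556). Of 16 tested genes of the receptor and its signalling 3 rose and 1 fell (median 0.0081), where 9.89% of all tested genes rose and 7.33% fell (median 0.0011). The counts were 5 and 3 without LPS+IFNg replicate 3, and 2 and 2 with libraries rescaled to the same total. The 3 that rose were the common gamma chain gene Il2rg (0.22), the kinase gene Tyk2 (0.29) and Irs2, an adaptor that couples the receptor to PI3 kinase (95 ± 17.9 to 147 ± 24.1, 0.63). Ptpn6, a phosphatase gene that dampens cytokine signalling, fell (-0.18), but did not pass without any 1 of the IL4 libraries or of untreated replicates 1 to 5 (adjusted p = 0.0664 to 0.133). Without IL4 replicate 2 only Irs2 still passed (adjusted p = 0.0688 for Il2rg and 0.0782 for Tyk2), and Tyk2 did not pass with libraries rescaled to the same total (0.0727).

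Cish (chr9:107296026-107302784, mm10) encodes an inhibitor of STAT5 signalling and had values of 3.31 to 15.1 (median 6) in the 6 untreated libraries and 89.6, 88.9 and 87.3 in the 3 IL4 libraries. The lowest IL4 library lay far above the highest untreated one (log2 fold change 3.43, SE 0.45, adjusted p = 2.53e-05). Socs1, whose product blocks Janus kinases, had 1 to 1.56 (median 1.05) untreated and 9.56, 7.06 and 11.9 with IL4, with a log2 fold change of 2.25 (SE 0.41, adjusted p = 0.000818). All 6 untreated libraries together held 6 reads of Socs1 and the 3 IL4 libraries 43, so its fold change is poorly fixed. Socs2 stood at 7.54 to 16.8 (median 14.8) untreated and 20.9, 19.8 and 17.8 with IL4, which did not pass (adjusted p = 0.275) although the groups did not overlap. Of 15 genes of cytokine feedback 4 rose and 0 fell (median 0.12). The other two were Socs6 (0.36) and Ptpn1 (0.32), a tyrosine phosphatase that acts on Janus kinases and STAT6.

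Of 40 listed genes of alternative activation 21 were in the table, and all 21 were tested. Among these 12 rose and 0 fell, with a median log2 fold change of 0.73. Chil3, Retnla, Ccl17 and Ccl22 were not in the table, so their response to IL4 was not measured here. Arg1 (chr10:24915221-24927484), the arginase 1 gene, had values of 1 to 2.8 (median 1.04) in the 6 untreated libraries and 75.3, 87.5 and 53.9 in the 3 IL4 libraries. In 3 of the 6 untreated libraries it stood at the floor, and the untreated libraries held 4 reads of it in all (log2 fold change 4.89, SE 0.33, adjusted p = 6.6e-09). Mrc1, the mannose receptor gene on chromosome 2, had 4521 to 5268 (median 4814) untreated and 13451, 13381 and 12302 with IL4, with the groups well apart (log2 fold change 1.43, SE 0.05, adjusted p = 2.27e-12). Mgl2 (chr11:70130329-70137550), a galactose-type lectin gene, had 50.8 to 75.7 (median 64.7) untreated and 377, 392 and 385 with IL4 (log2 fold change 2.57, SE 0.22, adjusted p = 1.84e-07). Its close relative Clec10a had 140.1 to 154 (median 151) untreated and 402, 428 and 363 with IL4, and no library of one group reached the other. Reads that match both genes could have been counted for either, which leaves the share of each uncertain. 

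Further members of the list were genes of other functions. Rnase2a, an eosinophil-type ribonuclease gene, rose from 2.77 ± 1.7 to 35.9 ± 5.85, from 15 reads in all untreated libraries to 150 in all IL4 libraries. Igf1, a growth factor gene of microglia, had 1511 to 1740.0 (median 1622) untreated and 3045, 2962 and 2777 with IL4 (log2 fold change 0.86). Flt1, which encodes a receptor of VEGF, had 3360.3 to 3808 (median 3624) untreated and 6158, 5972 and 5789.7 with IL4 (0.73). The transcription factor genes Irf4 (65.2 ± 9.63 to 103 ± 10.5) and Klf4 (70 ± 12.2 to 112 ± 15.1) also rose, as did the beta-glucan receptor gene Clec7a (73.6 ± 7.67 to 147 ± 9.36). Pparg, the nuclear receptor gene of lipid metabolism, had 1 to 12.1 (median 2.48) untreated and 6.57, 14.1 and 15.6 with IL4, and untreated replicate 3 alone overlapped the IL4 values (log2 fold change 1.67, SE 0.53, adjusted p = 0.036). It did not pass without untreated replicate 1, 2 or 5 (adjusted p = 0.0688, 0.0695 and 0.0637).

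**Figure D2:**
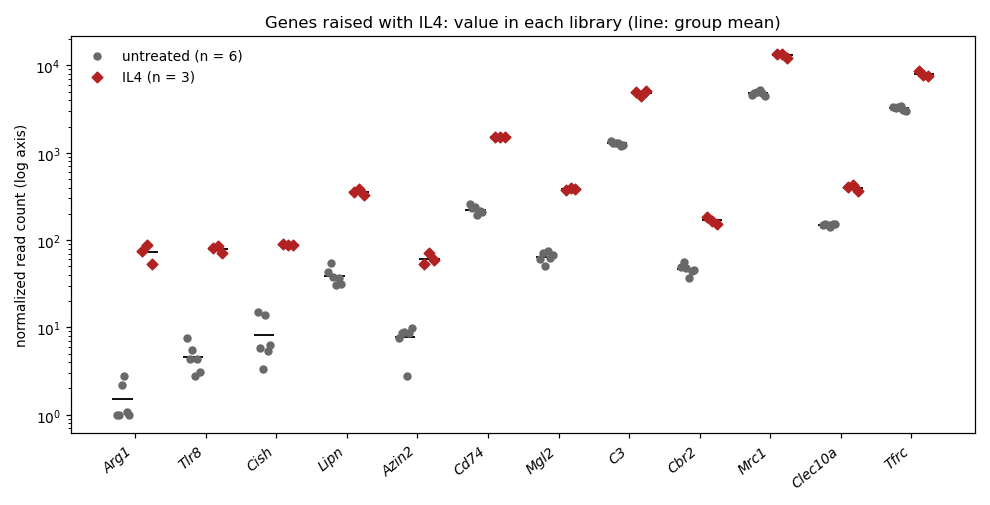
Normalized read count (log axis) of 12 genes that rose, in each of the 6 untreated libraries (grey circles) and 3 IL4 libraries (red diamonds), with a line at each group mean. For every gene shown the lowest IL4 value lies above the highest untreated value, from Arg1 (mean 1.51 against 72.2) to Mrc1 (mean 4830.4 against 13044).

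The bases before the start of Tlr8, next to Arg1 the largest rise by fold, are printed here because they hold both word types searched for in promoters. TTC and GAA with 4 bases between them is the form that STAT6 prefers, and TTC and GAA with 3 bases between them is shared by STAT factors. Each form reads the same on both strands, and a word of one type can overlap one of the other. The 250 bases before the start of Tlr8 are on the minus strand of chromosome X (chrX:167264330-167264579, GRCm38.p6, from RefSeq), and the run of 38 bases before the start of Ms4a7 is on the minus strand of chromosome 19 (chr19:11336147-11336184, the same build). Capitals mark the words. In Tlr8 the 3-base spacer word begins 106 bases and the 4-base spacer word 77 bases before the start, and in Ms4a7 the 4-base spacer word begins 13 bases before it.

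Tlr8: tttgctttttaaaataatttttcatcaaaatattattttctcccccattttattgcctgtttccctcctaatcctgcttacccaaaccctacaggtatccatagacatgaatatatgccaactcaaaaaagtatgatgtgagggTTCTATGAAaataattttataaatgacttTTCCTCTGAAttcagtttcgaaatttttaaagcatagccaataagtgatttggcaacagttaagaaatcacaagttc
Ms4a7: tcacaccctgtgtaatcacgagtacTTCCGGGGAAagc

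Of the genes at least 2-fold higher 65 had a promoter in the RefSeq table, taken as 250 bases before to 50 after each start. Among these 6 (9.23%) held the word with a 4-base spacer, and the share was 6.56% of 8968 tested genes with a promoter and 6.95% of all 32851 promoters. For the word with a 3-base spacer the shares were 9.23%, 8.10% and 8.30%. Of 21 genes at least 2-fold lower with a promoter 1 (4.76%) held each word. Cish held the 3-base spacer words TTCCTGGAA and TTCTTGGAA at bases 1 and 12 of its transcript, and Cbr2 the 4-base spacer word TTCGGAAGAA at base 25. The windows of Lipn, Mgl2, C3, Arnt2, Slc39a12 and Ptgs1 held neither. A match in these windows is a description of the letters.

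Tlr8 (chrX:167242696-167264329), the gene of a Toll-like receptor of endosomes, had values of 2.8 to 7.54 (median 4.31) in the 6 untreated libraries and 81.3, 86.1 and 71.6 in the 3 IL4 libraries. The groups lay far apart (log2 fold change 3.90, SE 0.29, adjusted p = 2.13e-08), from 25 reads over the untreated libraries to 330 over the IL4 libraries. Ms4a7, a tetraspanning membrane protein gene of macrophages, had 11.5 to 18.9 (median 14.7) untreated and 74.7, 49.4 and 63 with IL4 (log2 fold change 1.98, SE 0.30, adjusted p = 0.000117). Of 25 Toll-like receptor and adaptor genes 4 rose and 2 fell (median 0.13), where 9.89% of all tested genes rose and 7.33% fell. In this list 2 rose without IL4 replicate 1 or 2, and 7 rose and 3 fell without LPS+IFNg replicate 3 or in the fit of the 9 libraries alone. Tlr2, the receptor for bacterial lipoproteins, had 475 to 572 (median 532) untreated and 266, 302 and 225 with IL4 and fell (log2 fold change -0.99, SE 0.09, adjusted p = 1.61e-07). Cd14, a co-receptor for lipopolysaccharide, fell too (541 ± 36 to 391 ± 30.3, -0.47). Tlr4, the lipopolysaccharide receptor, stood at 522 to 597 (median 567) untreated and 788, 749.6 and 653 with IL4, which passed in the fit of the 9 libraries alone (adjusted p = 0.000222) and not in the fit of all 15 (0.133).

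Arginine and polyamine genes moved in both directions, 5 of 25 higher and 3 lower (median 0.014), with 5 and 5 without LPS+IFNg replicate 3 or with libraries rescaled to the same total. Beside Arg1, the largest rise was that of Azin2 (chr4:128930233-128962442), an antizyme inhibitor that raises ornithine decarboxylase activity and polyamine uptake, with 2.8 to 9.77 (median 8.63) untreated and 52.6, 70.6 and 59.8 with IL4 (log2 fold change 2.90, SE 0.34, adjusted p = 7.03e-06). The arginine transporter gene Slc7a2 rose from 154 ± 22.3 to 314 ± 23.3, and Sat1, the acetyltransferase of polyamine breakdown, from 1736 ± 97.9 to 3584 ± 158. Ddah1, which degrades methylated arginines that inhibit nitric oxide synthases, rose from 406 ± 11.3 to 613 ± 33.1. Odc1, the ornithine decarboxylase gene itself, fell slightly (1391 ± 52.3 to 1205 ± 38.9, -0.21). Without IL4 replicate 2 none of the 3 decreases of this list, Odc1, Aldh18a1 and Pycr1, passed, and Odc1 did not without IL4 replicate 1 or untreated replicate 1 either (adjusted p = 0.0577 to 0.132). Nos2, the inducible nitric oxide synthase gene, had 1 to 9.43 (median 4.17) untreated and 17.3, 7.06 and 7.54 with IL4, and the groups overlapped (adjusted p = 0.126).

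Among 11 C-type lectin receptor genes 5 rose and 3 fell. The lectins that rose were Mgl2, Mrc1, Clec10a, Clec7a and Clec4a3 (44.9 ± 6 to 143 ± 4.42, 1.66), the last of a family of close copies whose counts may be shared. Those that fell were Clec4e, or Mincle (59.9 ± 10.3 to 37.2 ± 4.63; adjusted p = 0.0526 without IL4 replicate 3), Clec4d (314 ± 23.2 to 219 ± 11.9) and Clec5a (456 ± 24.5 to 304 ± 22.2), receptors known to signal through ITAM adaptors to inflammatory genes.

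Inflammatory genes were not all lower. Tnf, the tumour necrosis factor gene, had 159 to 187 (median 179.6) untreated and 93.2, 93.2 and 88.3 with IL4 and fell (log2 fold change -0.93, SE 0.12, adjusted p = 1.91e-05). Il1b, which encodes interleukin 1 beta, had 1.89 to 9.93 (median 6.51) untreated and 21.5, 14.1 and 23.2 with IL4 and rose from this low level (1.57, adjusted p = 0.00591). The chemokine genes parted likewise: Ccl3 had 443 to 536 (median 466) untreated and 245, 215 and 229 with IL4 and Ccl9 118 to 137 (median 131) untreated and 70.5, 73.4 and 59.3 with IL4, and both fell (-1.06 and -0.94). Ccl2, which draws monocytes, had 43 to 75.7 (median 51.2) untreated and 133, 158 and 119.6 with IL4 and rose (1.31, adjusted p = 0.000986). Ccl7, a relative of Ccl2 with overlapping receptors, rose from 11 reads in all untreated libraries to 86 in all IL4 libraries (2.4 ± 1.71 to 20.2 ± 0.623). The NF-kB inhibitor genes Nfkbia (305 ± 24.2 to 220.4 ± 5.58) and Nfkbie (97.1 ± 9.46 to 69 ± 3.83) fell. Of 24 genes of NF-kB subunits and inhibitors 4 were lower, 1 was higher and 19 did not pass. The number lower was 2 without IL4 replicate 2 or 3 and 7 without LPS+IFNg replicate 3.

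Complement, eicosanoid and iron genes each held members with large rises. C3, the central complement component, had 1187 to 1383 (median 1285) untreated and 5003, 4451 and 5129.9 with IL4 (log2 fold change 1.92, SE 0.11, adjusted p = 6.97e-10). C3ar1, the receptor for its C3a fragment, rose from 755 ± 60 to 1267 ± 36, whereas C5ar1, the receptor for C5a, fell from 22.3 ± 11 to 8.41 ± 3.62 (3 of 15 complement genes higher, 1 lower, and 5 and 1 without LPS+IFNg replicate 3). C5ar1 did not pass without any 1 of the IL4 libraries or of untreated replicates 3 to 6 (adjusted p = 0.0527 to 0.268). Ptgs1, the constitutive cyclooxygenase gene, had 37.7 to 79.7 (median 59.2) untreated and 177, 164 and 173 with IL4 (1.54), and the phospholipase gene Pla2g15 rose from 331 ± 18.6 to 621 ± 24.6. Ptgs2, the inducible cyclooxygenase gene, stood at 41.2 ± 8.39 untreated and 27.1 ± 4.6 with IL4 (adjusted p = 0.356). Tfrc, the transferrin receptor gene, had 3001 to 3460.4 (median 3291) untreated and 8619, 7842 and 7530.2 with IL4 (log2 fold change 1.30, SE 0.07, adjusted p = 3.5e-10). Hfe, whose product binds the transferrin receptor, rose from 98.2 ± 11.3 to 197 ± 2.7, and the haem oxygenase gene Hmox1 from 2079.7 ± 113 to 2676 ± 77.6. Hp, which encodes the haemoglobin-binding protein haptoglobin, had 314 to 387 (median 347) untreated and 153, 134 and 167 with IL4 and fell (log2 fold change -1.20, SE 0.30, adjusted p = 0.00943). Without IL4 replicate 2 Hp did not pass (-1.12, adjusted p = 0.06). In all, 6 of 15 iron genes rose and 1 fell (median 0.07), and 4 and 4 with libraries rescaled to the same total.

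The remaining genes among the 20 with the largest rises and an IL4 mean of at least 50 had varied functions. Lipn (chr19:34067358-34084918), an acid lipase gene, had 30.8 to 54.7 (median 37.1) untreated and 359, 381 and 328 with IL4 (log2 fold change 3.18, SE 0.19, adjusted p = 1.31e-09). Cd74, the invariant chain gene on chromosome 18, had 193 to 257 (median 223) untreated and 1516, 1530.3 and 1529.8 with IL4, and the IL4 libraries were nearly equal (log2 fold change 2.77, SE 0.19, adjusted p = 7.6e-09). Cbr2, a carbonyl reductase gene, had 36.4 to 56.1 (median 46.2) untreated and 186, 167 and 154 with IL4 (1.85). Rnf19b, a ubiquitin ligase gene, went from 283 ± 8.35 to 946 ± 52.6, Abcd2, a peroxisomal fatty acid transporter gene, from 120.0 ± 11.7 to 376 ± 24.4, and Arnt2, a bHLH-PAS transcription factor gene, from 26.1 ± 6.1 to 91.9 ± 10.5. Slc39a12, a zinc transporter gene, went from 18.1 ± 4.94 to 64.1 ± 8.99 and Sla, an adaptor that dampens receptor tyrosine kinase signalling, from 26.7 ± 8.25 to 78.7 ± 8.47. Ifi204 (13.8 ± 2.61 to 55.5 ± 6.59), Ang2 (16 ± 5.19 to 61.1 ± 1.51) and Klk1b11 (25.9 ± 3.83 to 80.8 ± 3.91) belong to families of near-identical copies, so their counts are uncertain.

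The invariant chain chaperones class II molecules, and Cd74 was 1 of 3 of 10 tested class II presentation genes that rose. The others were the lysosomal processing enzymes legumain, Lgmn (4269.7 ± 150.4 to 6394 ± 65.8), and the thiol reductase Ifi30 (2566 ± 103 to 3774 ± 81.9). H2-Aa, a class II chain gene, was at the floor of 1 in all 9 libraries, and Ciita, the master regulator of the class II genes, was at 1.02 ± 0.0423 untreated and 1 ± 0 with IL4. The co-stimulatory receptor gene Cd40 had 64.1 to 75.7 (median 67.6) untreated and 154, 151 and 137 with IL4 and rose (1.09). Cd274, which encodes the inhibitory ligand PD-L1, had 79.8 to 106 (median 85.8) untreated and 194, 209 and 176 with IL4 and also rose (1.08). Of 20 co-stimulatory and checkpoint genes 5 rose and 4 fell. The counts were 3 and 3 without IL4 replicate 1 or 2, 8 and 6 without LPS+IFNg replicate 3, and 3 and 5 with libraries rescaled to the same total.

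Transcription factor genes of the myeloid lineage gave 5 of 26 higher and 2 lower, where 9.89% of all tested genes rose and 7.33% fell. Without LPS+IFNg replicate 3 the counts were 9 and 2. Tfec, a relative of TFEB, rose from 116 ± 16.9 to 208 ± 5.49 (log2 fold change 0.85, SE 0.12, adjusted p = 5.37e-05), and Runx1 from 413 ± 20.7 to 539 ± 52.8. Mef2c, a factor of resting microglia, had 381 to 488 (median 442) untreated and 287, 267 and 259.6 with IL4 and fell (-0.68). Among AP-1, EGR, KLF and NR4A genes 5 of 21 rose and 1 fell, with Klf2 going from 29.4 ± 4.32 to 66.3 ± 15.5 and Atf3 from 1396 ± 42.4 to 2157 ± 36.3. Without IL4 replicate 1, 8 of this list rose.

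Of 30 cytokine and growth factor receptor genes 10 rose and 5 fell (median 0.16). Csf2rb, the shared beta chain of the GM-CSF, IL3 and IL5 receptors, had 3447 to 3900.3 (median 3683) untreated and 7321, 6966 and 6588 with IL4 (log2 fold change 0.93, SE 0.06, adjusted p = 7.93e-09), and its close copy Csf2rb2 rose from 1699 ± 64.3 to 2766 ± 167. Il6st, the signal-transducing chain of the IL6 family, rose from 1267 ± 58.6 to 1815 ± 141 and Il10rb, a chain of the IL10 receptor, from 517 ± 32.3 to 764 ± 24. The semaphorin and VEGF co-receptor genes split, Nrp1 rising from 1406 ± 99 to 1847 ± 90.4 and Nrp2 falling from 2772 ± 180.5 to 2129 ± 21.6. Il17ra, the IL17 receptor gene, fell from 164 ± 16.2 to 106 ± 9.65. Leaving out IL4 replicate 3 or untreated replicate 2 brought the 5 decreases to 3.

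Of 48 genes of the respiratory chain and ATP synthase 35 rose and 0 fell, with a median log2 fold change of 0.23. Uqcrc1, a core subunit of complex III, had 891 to 993 (median 962) untreated and 1127, 1229.7 and 1255 with IL4 (log2 fold change 0.34, SE 0.05, adjusted p = 0.000175). Cox6b1, of cytochrome oxidase, had 1440.3 to 1599.9 (median 1492) untreated and 1874, 1756 and 1786 with IL4 (0.26), and Atp5j, of ATP synthase, had 962 to 1045 (median 982) untreated and 1142, 1211 and 1162 with IL4 (0.24). In each of these 3 genes the groups did not overlap. Of 24 TCA cycle genes 14 rose and 0 fell (median 0.16), with Idh3b going from 3454 ± 62.5 to 4342 ± 95.9 and Sdhb from 1099 ± 34.8 to 1438 ± 90.5. Only 9 TCA cycle genes rose without IL4 replicate 2 or 3, and 9 rose and 1 fell with libraries rescaled to the same total.

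Fatty acid genes followed, with 17 of 36 higher and 0 lower (median 0.19). Cd36, the fatty acid and oxidized lipoprotein receptor gene, had 656 to 739.7 (median 683) untreated and 1392, 1382 and 1304 with IL4 (log2 fold change 0.98, SE 0.13, adjusted p = 2.64e-05). Acadm, the dehydrogenase of medium-chain fatty acids, had 1508 to 1788 (median 1651) untreated and 2478, 2372 and 2287 with IL4 (0.54). The trifunctional protein genes Hadha (1349 ± 43.7 to 1706 ± 36.1) and Hadhb (651 ± 35.8 to 816 ± 14.9) rose, as did the long-chain acyl-CoA synthetase gene Acsl1 (1396 ± 85.9 to 2012 ± 160.1), the mitochondrial thiolase gene Acat1 (990.1 ± 38.5 to 1272 ± 35.7) and the co-activator gene Ppargc1b (297 ± 24.5 to 383 ± 17). Glycolysis genes gave 7 of 22 higher and 3 lower (median 0.12), 4 higher without IL4 replicate 1, 12 higher without LPS+IFNg replicate 3, and 5 higher and 5 lower with quantile normalization. The kinase gene Pfkfb4 rose from 130.4 ± 7.08 to 198 ± 24.6 and Gpi1 from 3862 ± 62.3 to 4551 ± 152, whereas Pdk1, which holds pyruvate back from the TCA cycle, fell from 909 ± 32.6 to 718 ± 14.3.

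**Figure D3:**
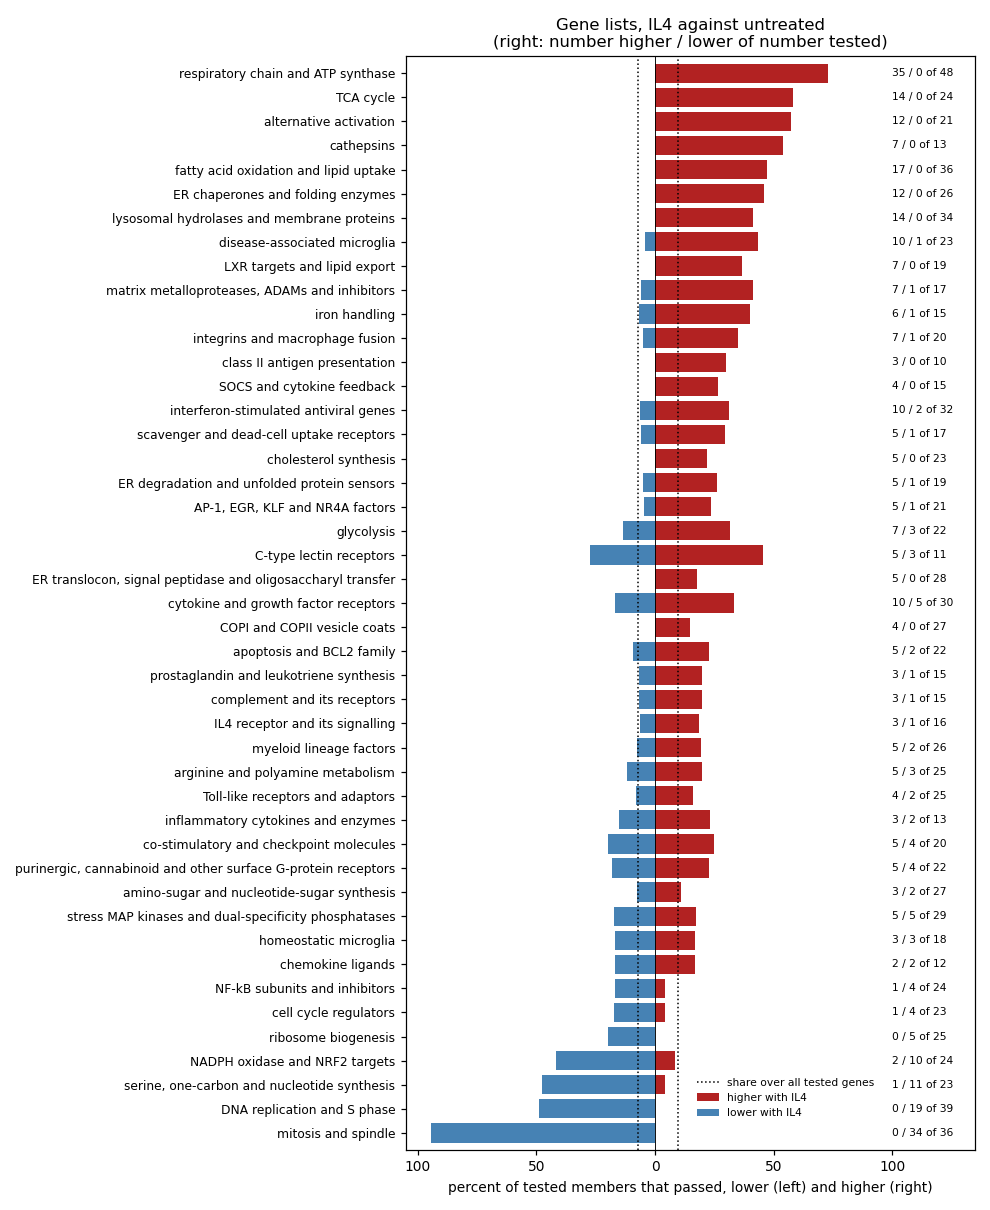
Share of the tested members of each gene list that passed with IL4, lower to the left in blue and higher to the right in red, for lists with at least 3 members past the threshold; dotted lines mark the shares over all tested genes (7.33% lower, 9.89% higher). The respiratory chain list stands at the top (35 higher, 0 lower of 48) and the mitosis list at the bottom (0 higher, 34 lower of 36).

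Of 19 LXR target and lipid export genes 7 rose and 0 fell, among them Abca1 (12187 ± 490.3 to 16089 ± 1243) and Abcg1 (2362 ± 77.8 to 3583 ± 70.5), the cholesterol exporters, Apoe (15731 ± 1251 to 21326 ± 2685) and Arl4c (1543 ± 38.7 to 2525 ± 119.9). With quantile normalization 4 of this list rose and 1 fell, and Abca1 (adjusted p = 0.116) and Apoe (0.328) did not pass. Of 34 lysosomal genes 14 rose and 0 fell (median 0.13), and with libraries rescaled to the same total 11 rose and 2 fell. Psap, the precursor of the saposins that help break down sphingolipids, had 24854 to 27510.0 (median 26203) untreated and 36256, 36143 and 35821 with IL4 (0.47). Of 13 cathepsin and cystatin genes 7 rose and 0 fell, with Ctsb, cathepsin B, going from 16439 ± 689 to 22583 ± 333 and Ctsl from 7659.7 ± 306 to 9228 ± 55.3, while 4 rose and 2 fell with quantile normalization, under which Ctsb did not pass (adjusted p = 0.15). 

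Genes of protein folding in the endoplasmic reticulum gave 12 of 26 higher and 0 lower (median 0.20). Pdia4, a disulfide isomerase gene, had 976 to 1074 (median 1027) untreated and 2307, 2255 and 2362 with IL4 the largest change of the list (log2 fold change 1.18, SE 0.04, adjusted p = 3.15e-12). Calr, the chaperone calreticulin, had 10693 to 12116 (median 11241) untreated and 15609, 15391 and 16542 with IL4 (0.48), and Hspa5, the chaperone BiP, rose from 11028 ± 319 to 13878 ± 256. The number higher was 7 without IL4 replicate 2, 7 with libraries rescaled to the same total and 6 with quantile normalization, and Hspa5 passed under neither rescaling (adjusted p = 0.0534 and 0.33). Over all tested genes 9.89% rose and 7.33% fell. The lists of the translocon (5 of 28 higher, 0 lower) and of the COPI and COPII coats (4 of 27 higher, 0 lower) moved more with the settings. They came to 1 to 3 and 1 to 2 higher when IL4 replicate 1, 2 or 3 or untreated replicate 2, 3, 5 or 6 was left out. With libraries rescaled to the same total 1 translocon gene was higher, and 0 coat genes were higher and 1 lower. The translocon count was 8 without LPS+IFNg replicate 3 and 9 with array weights, which gave 7 for the coats.

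The cell cycle genes moved the other way. All 36 tested genes of mitosis and the spindle had a negative log2 fold change and 34 fell (median -0.37). Cenpf, a kinetochore gene, had 457 to 538 (median 504) untreated and 369, 318 and 230.0 with IL4 (log2 fold change -0.73, SE 0.10, adjusted p = 4.03e-05). Mki67, the proliferation marker, had 3809 to 4057 (median 3953) untreated and 3246, 2909.7 and 2421 with IL4 (-0.48), with wider spread among the IL4 libraries than among the untreated ones. Cenpe, a kinetochore motor, fell from 855 ± 43.7 to 575 ± 125, Bub1, a spindle checkpoint kinase, from 1082 ± 56.6 to 841 ± 64.8, Racgap1, needed to divide the cell, from 938 ± 36.6 to 674 ± 61.5 and Tpx2, a spindle assembly factor, from 1999 ± 31.8 to 1489 ± 25.8. Of 39 genes of DNA replication and S phase 19 fell and 0 rose (median -0.19), with Mcm6, of the replicative helicase, going from 2305 ± 94.6 to 1921 ± 62 and Mcm10, which helps to start it, from 624 ± 35.1 to 509 ± 8.55. Without IL4 replicate 2, 8 S phase genes fell. Cdkn1a, the gene of the cycle inhibitor p21, had 1970.1 to 2236 (median 2140.1) untreated and 2579, 2836 and 2775 with IL4 and rose (0.37; adjusted p = 0.0615 without IL4 replicate 2). Mybl2, a transcription factor of the G2 phase, fell from 1295 ± 35.8 to 931 ± 20.

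Of 24 genes of the oxidative burst and of antioxidant defence 10 fell, 2 rose and 12 did not pass (median -0.16). Cybb, the catalytic subunit of the phagocyte NADPH oxidase, had 3966 to 4674 (median 4278) untreated and 2653, 2423 and 2375 with IL4 (log2 fold change -0.80, SE 0.05, adjusted p = 5.84e-09). Among NRF2 targets, Slc7a11, the cystine importer, had 1033 to 1229.8 (median 1175) untreated and 756, 733 and 649 with IL4 (-0.69), and Gsr, glutathione reductase, had 800.1 to 988 (median 888) untreated and 629, 624 and 677 with IL4 (-0.47). Txnrd1, thioredoxin reductase, fell from 3555 ± 151 to 2670.1 ± 31 and Gclm, a subunit of the enzyme that makes the glutathione precursor, from 978 ± 59.4 to 730.4 ± 43.3. The 2 that rose were Hmox1 and the oxidase subunit gene Ncf4 (619 ± 36.8 to 842 ± 32.1).

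Serine, one-carbon and nucleotide synthesis genes gave 11 of 23 lower and 1 higher (median -0.16), and 6 lower without IL4 replicate 2. Cad, which starts pyrimidine synthesis, had 1926 to 2090.3 (median 2021) untreated and 1551, 1505 and 1687 with IL4 (-0.35). Shmt2, the mitochondrial serine hydroxymethyltransferase, fell from 1638 ± 42.3 to 1311 ± 67.6 and Asns, asparagine synthetase, from 744 ± 42.4 to 597 ± 29.4. Of 25 ribosome biogenesis genes 5 fell and 0 rose (median -0.12), a count of 2 without IL4 replicate 2, 8 without untreated replicate 6, 12 without LPS+IFNg replicate 3 and 10 under either rescaling. Mybbp1a, a nucleolar protein gene, fell from 4991 ± 124 to 4341 ± 157. Of 49 cytosolic ribosomal protein genes limma called 0 (2 at an unadjusted p below 0.05), and their median was 0.06. With quantile normalization 2 were lower.

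Interferon-stimulated antiviral genes gave 10 of 32 higher and 2 lower (median 0.17). Parp14, a co-factor of STAT6 as well as an interferon-induced gene, had 39.2 to 61.7 (median 50) untreated and 83.1, 84.7 and 87.8 with IL4 (0.77). Irf9, part of the interferon transcription complex, rose from 57.5 ± 9.31 to 89.9 ± 11, and the 2'-5' oligoadenylate synthetase gene Oas1a from 98.9 ± 7.4 to 140.3 ± 12. Ifitm3, which blocks viral entry, fell from 298 ± 21.2 to 181 ± 18.7, and Ifit2 from 132 ± 12.7 to 94.6 ± 9.44.

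Genes used to describe microglial states moved in both directions. Of 18 tested homeostatic microglia genes 3 rose and 3 fell, 7 and 3 without LPS+IFNg replicate 3, and 1 and 2 when the 3 shallowest libraries were left out. Mertk, a receptor for dead cells (143 ± 24.2 to 261 ± 38), and Cst3 were among those that rose, and Mef2c, Tgfbr2 and Tmem119 fell. Tmem119, a marker of resting microglia, was at 7.62 ± 3.42 untreated and 2.03 ± 0.903 with IL4, or 41 reads in all untreated libraries and 9 in all IL4 libraries, and without IL4 replicate 2 it did not pass (adjusted p = 0.0858), leaving 1 decrease in the list. Mertk did not pass without IL4 replicate 1 (0.0623), nor Tgfbr2 without IL4 replicate 2 or 3 or untreated replicate 1, 2 or 3 (0.0563 to 0.242). Among 23 genes of disease-associated microglia, 10 rose and 1 fell (6 and 4 with quantile normalization, 16 and 2 without LPS+IFNg replicate 3), with Lgals3, galectin 3, at 17459 to 19888 (median 18189) untreated and 27618, 30114 and 30304 with IL4 (0.68). Csf1, the growth factor of these cells, rose from 1144 ± 41.6 to 1683 ± 76.1, and Cd9 fell from 4123 ± 133 to 3262 ± 89. Trem2, the lipid receptor of this state, stood at 1693 ± 55.1 untreated and 1714 ± 87.5 with IL4 (adjusted p = 0.903). 

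Matrix protease genes gave 7 of 17 higher and 1 lower (median 0.29). Mmp13, a collagenase gene, rose from 8.93 ± 3.97 to 37.7 ± 5.67 and Mmp27 from 10.3 ± 4.13 to 38.7 ± 6.49, both from few reads (51 and 71 in all untreated libraries, 163 and 170 in all IL4 libraries). Timp2, a protease inhibitor, had 1074 to 1188 (median 1117) untreated and 1744, 1752 and 1751 with IL4 (0.64). Plaur, the receptor of urokinase, fell from 141 ± 18.3 to 85.1 ± 3.39. Among 20 integrin and macrophage fusion genes 7 rose and 1 fell, 4 rose without IL4 replicate 2, and 11 rose and 2 fell without LPS+IFNg replicate 3. Itgam, the CD11b chain, went from 1814 ± 98.3 to 2411 ± 57.2 and Cd47, the ligand of the inhibitory receptor SIRPA, from 239 ± 14.6 to 372 ± 14.9.

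Some of the largest changes in mean value were in abundant genes. Vim, the intermediate filament gene vimentin, had 28172 to 33646 (median 31269.7) untreated and 48442, 58369 and 52936 with IL4 (log2 fold change 0.77, SE 0.10, adjusted p = 2.91e-05), and Scd2, a fatty acid desaturase gene, 39728 to 45162 (median 42303) untreated and 54340.2, 53264 and 50787 with IL4 (0.33). Scd2 did not pass with quantile normalization (adjusted p = 0.0618). Lcp1, which encodes the actin bundler L-plastin, had 4137 to 4564 (median 4416) untreated and 2878, 2794 and 2717 with IL4 and fell (log2 fold change -0.65, SE 0.05, adjusted p = 3.67e-08). The chromatin-bound growth factor gene Hdgf fell from 9304 ± 422 to 7562 ± 335 and the nucleolin gene Ncl from 15845 ± 764 to 13816 ± 439 (adjusted p = 0.0757 without IL4 replicate 2). The cytoskeletal linker gene Dst fell from 3702 ± 115 to 2516 ± 190.1. Transporter genes outside the lists rose with small spread and were picked after their values were seen: the bicarbonate exchanger Slc4a2 (2114 ± 77.6 to 4620.3 ± 100.1, log2 fold change 1.13, SE 0.04, adjusted p = 5.29e-12), the sialic acid exporter of lysosomes Slc17a5 (394 ± 19.8 to 897 ± 46.7), and the chloride transporters Clcn3 (451 ± 15.5 to 863 ± 52.2) and Clcn5 (274 ± 22.3 to 611 ± 19.1). Picked in the same way, Xdh, xanthine dehydrogenase, rose from 1515 ± 71.9 to 3132 ± 144, and the semaphorin gene Sema4d fell from 1454 ± 78.9 to 880.2 ± 19.4.

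The other lists are given here by their counts, beside which 9.89% of all tested genes rose and 7.33% fell. Cholesterol synthesis genes gave 5 of 23 higher and 0 lower, with Nsdhl, a sterol dehydrogenase gene, going from 632 ± 28.6 to 825 ± 28.6. In this list 8 were higher without LPS+IFNg replicate 3, and 3 were higher and 1 lower with libraries rescaled to the same total. Of 19 genes of ER degradation and unfolded protein sensing 5 rose and 1 fell (2 and 1 without IL4 replicate 2), with Xbp1, the transcription factor of that response, going from 602 ± 33.4 to 741 ± 40.7. Of 17 scavenger and dead-cell uptake receptor genes 5 rose and 1 fell (2 and 0 without IL4 replicate 1, 3 and 3 with libraries rescaled to the same total), among them Mfge8, which bridges dead cells to phagocytes (10849.8 ± 233 to 16833 ± 909.6). Stress MAP kinases and their phosphatases gave 5 of 29 higher and 5 lower, with Dusp4, a phosphatase gene, rising from 1753 ± 119 to 2872 ± 196 and Mapkapk2, a kinase gene, falling from 3078 ± 146 to 2551 ± 36.2. Without IL4 replicate 1 or 3 or untreated replicate 6 only 2 of these fell. Of 22 purinergic, cannabinoid and other G-protein receptor genes 5 rose and 4 fell (3 and 1 without IL4 replicate 1 or 2), with P2rx4, an ATP-gated channel gene, going from 761 ± 53.6 to 997 ± 7.02. Of 22 apoptosis genes 5 rose and 2 fell (2 and 0 without IL4 replicate 2, 3 and 3 with libraries rescaled to the same total), with Casp1, the protease that cleaves pro-interleukin 1 beta, going from 511 ± 27.7 to 642 ± 22.6. Amino-sugar and nucleotide-sugar genes gave 3 of 27 higher and 2 lower, shares near the 9.89% and 7.33% over all tested genes, with Mgat1, which starts complex N-glycans, going from 348 ± 15 to 641 ± 27.3. Of 15 eicosanoid synthesis genes 3 rose and 1 fell, of 13 inflammatory cytokine and enzyme genes 3 and 2, of 12 chemokine genes 2 and 2, of 7 Fc receptor genes 1 and 0, and of 23 cell cycle regulators 1 and 4 (0 and 2 without IL4 replicate 2).

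Signalling genes led the decreases among genes whose untreated mean reached 50. Map3k5 (chr10:19934472-20142753), the kinase ASK1 of the stress response, had 90.6 to 106 (median 92) untreated and 35.9, 21.2 and 35 with IL4, and all IL4 values lay below all untreated ones (log2 fold change -1.64, SE 0.14, adjusted p = 1.19e-07). Hivep2, a zinc finger factor, had 54.7 to 89.7 (median 71.4) untreated and 29.9, 25.4 and 28.6 with IL4 (log2 fold change -1.29, SE 0.17, adjusted p = 2.95e-05). Arhgap24, a RAC-inactivating protein gene, had 87.7 to 101 (median 97.1) untreated and 40.6, 33.9 and 52.8 with IL4 (-1.18), and Pid1, an adaptor that limits insulin signalling, had 164 to 199 (median 181) untreated and 92.6, 86.1 and 77 with IL4 (-1.08). The ETS factor gene Etv4 fell from 87.5 ± 14.2 to 43.2 ± 7.13 and Efr3b, a membrane anchor of a phosphoinositide kinase, from 683 ± 42.2 to 350.2 ± 44.9. Klhl6 fell from 374 ± 44.5 to 180.1 ± 9.11, Ptchd1 from 186 ± 24.4 to 96.2 ± 22 and the activating receptor gene Pilrb1 from 53.3 ± 8.57 to 26.2 ± 6.27.

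**Figure D4:**
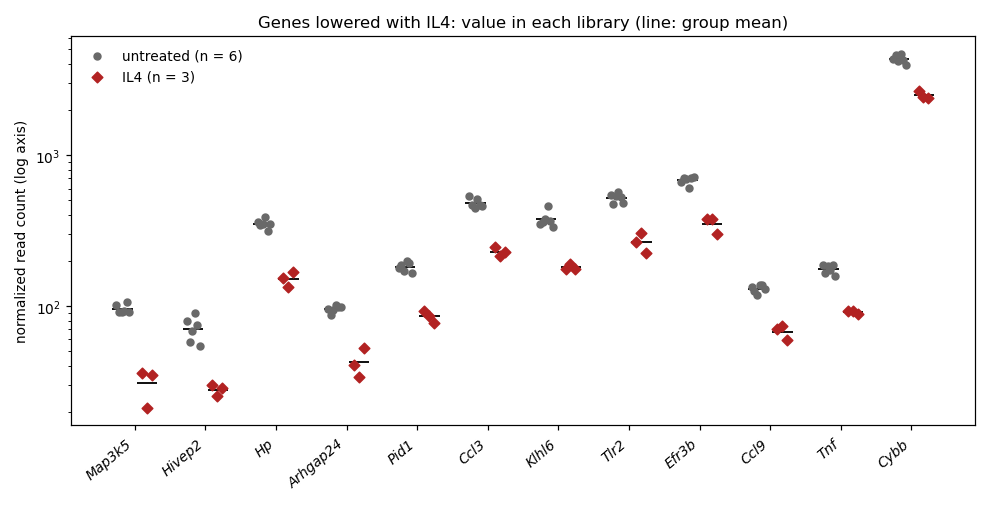
Normalized read count (log axis) of 12 genes that fell, in each of the 6 untreated libraries (grey circles) and 3 IL4 libraries (red diamonds), with a line at each group mean. For every gene shown the highest IL4 value lies below the lowest untreated value, from Map3k5 (mean 95.5 against 30.7) to Cybb (mean 4329 against 2483).

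The 20 genes with the largest rises among those whose IL4 mean reached 50 were compared between IL4 and each other stimulus directly. The difference of means leaves out the untreated libraries, but the shared estimate of spread includes them. These 20 genes had been chosen on a contrast that shares the IL4 libraries, which favours a higher value with IL4. Against LPS+IFNg 15 were higher with IL4, 4 lower and 1 did not pass, where 28.8% of all tested genes were higher and 28.8% lower. Those lower with IL4 were Cd74, Ifi204, C3 and Rnf19b. Without LPS+IFNg replicate 3, which stood apart, 15 were higher, 3 lower and 2 did not pass, where 28.2% and 26.8% of all tested genes were higher and lower. Cish was then higher with IL4 (log2 difference 1.52, adjusted p = 0.00462), and Cd74 (-0.17, adjusted p = 0.185) and Ms4a7 (0.47, adjusted p = 0.139) did not pass. C3 stood at 1279.9 untreated, 4861 ± 361 with IL4, 24880.2 ± 7347 with LPS+IFNg and 1499 ± 52 with TGFb (IL4 minus LPS+IFNg -2.32, SE 0.12, adjusted p = 1.17e-11). Cish, the gene that did not pass, stood at 8.3 untreated, 88.6 ± 1.22 with IL4, 68.3 ± 66 with LPS+IFNg and 6.89 ± 1.39 with TGFb (adjusted p = 0.204), and the 3 LPS+IFNg libraries at 30.2, 30.1 and 145.

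Against TGFb 17 of the 20 were higher with IL4, 0 lower and 3 did not pass, where 20.7% of all tested genes were higher and 19% lower. Those 3 were Ms4a7, Sla and Ptgs1, and Ptgs1 stood at 60.3 untreated, 172 ± 7.05 with IL4, 7.3 ± 1.49 with LPS+IFNg and 173 ± 14.5 with TGFb. Arg1 and Tlr8 were near the floor with both other stimuli, Tlr8 at 4.6 untreated, 79.7 ± 7.37 with IL4, 1.18 ± 0.317 with LPS+IFNg and 5.29 ± 1.06 with TGFb (IL4 minus TGFb 3.69, SE 0.33, adjusted p = 6.21e-08). Mrc1 stood at 4830.4 untreated, 13044 ± 644 with IL4, 1230.0 ± 64.9 with LPS+IFNg and 2734 ± 99.3 with TGFb (IL4 minus LPS+IFNg 3.41, SE 0.06, adjusted p = 2.64e-18), so that the other stimuli lay below and IL4 above the untreated level.

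Of the 15 deepest decreases among genes whose untreated mean reached 50 13 were lower with IL4 than with LPS+IFNg, 1 higher and 1 did not pass, where 28.8% of all tested genes were lower. Their choice on a contrast with the IL4 libraries favours a lower value with IL4. Tnf stood at 176 untreated, 91.6 ± 2.81 with IL4, 3743 ± 1141 with LPS+IFNg and 259 ± 11.2 with TGFb (IL4 minus LPS+IFNg -5.30, SE 0.14, adjusted p = 3.02e-16). Efr3b was the higher gene and Klhl6 the one that did not pass. Without LPS+IFNg replicate 3 Efr3b did not pass either (0.19, adjusted p = 0.0724), 0 were higher and 13 lower. Against TGFb 12 were lower with IL4, 2 higher (Ccl9 and Pilrb1) and 1, Ccl3, did not pass, where 19% of all tested genes were lower. Map3k5 stood at 95.5 untreated, 30.7 ± 8.24 with IL4, 119.7 ± 8.47 with LPS+IFNg and 205 ± 5.39 with TGFb (IL4 minus TGFb -2.74, SE 0.16, adjusted p = 1.78e-10). Ccl9 stood at 130.1 untreated, 67.7 ± 7.48 with IL4, 181 ± 16.8 with LPS+IFNg and 22 ± 5.43 with TGFb, lowest with TGFb (IL4 minus TGFb 1.60, SE 0.16, adjusted p = 1.62e-07).

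**Figure D5:**
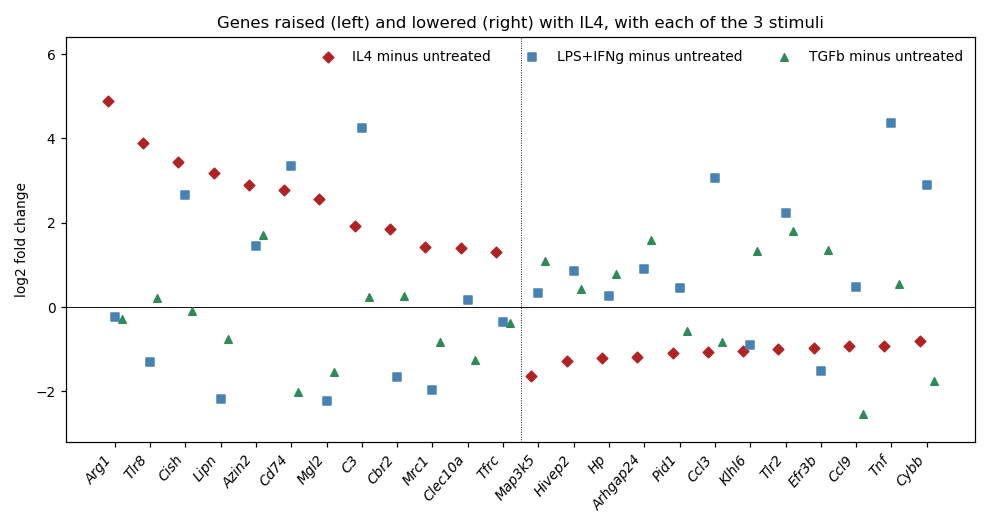
Log2 fold change against untreated with IL4 (red diamonds), LPS+IFNg (blue squares) and TGFb (green triangles), for 12 genes that rose and 12 that fell with IL4. All 3 contrasts share the 6 untreated libraries. Cd74, C3 and Azin2 were up with LPS+IFNg too, and Ccl3, Tnf and Cybb went in opposite directions with IL4 and LPS+IFNg.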

How the data were processed

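RNA of ESdM was sequenced in 15 TruSeq libraries, and 1 table of 11201 genes by 15 libraries was used. Per the submitters' processing notes, TopHat2 2.0.3, Partek 6.6, R 3.0.2, DESeq2 and the mm10 build were used; the annotation, counting rule and strand setting are not given in the sources used here. The deposited signal values were reads divided by 1 factor per library, with no value under 1 (the floor): values above it were whole multiples of 1 step per library (99.96% to 100% within 0.01 reads plus the rounding of the file). The step gave the reads per library, 2682564 to 18676181, which are inferred, take values at the floor as 0 reads and were used to describe depth only. The number of reads of a gene limits the precision of its value.

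Values were taken to log2(value + 1) and fitted with limma 3.58.1 in R 4.3.3 (empirical Bayes with trend) in 1 model of the 4 groups over 15 libraries, for the 11138 genes that reached a value of 10 in 3 or more libraries. The p-values were adjusted over all tested genes (Benjamini-Hochberg, threshold 0.05). Fold changes on this scale understate the change of low genes. Values are means ± SD over 6 untreated and 3 IL4 libraries. On simulated data with known changes, 52%, 90%, 96% and 100% of 50 genes each were recovered at 1.25, 1.5, 2 and 4-fold, with 6 false calls among 10909 genes. The simulated libraries were drawn around the untreated means with independent noise. They held no library that stood apart and no error of scaling, so these rates are not those of the real libraries.

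Genes named were the members of a panel of 16 that were in the table, the 20 largest and 15 deepest called changes (the mean of the higher group reaching 50, no overlap of the groups), the 6 largest changes in mean each way, and up to 5 called members of each of 47 lists with at least 3 called. Of the panel, Chil3, Retnla, Ccl17 and Ccl22 were not in the table. The list counts cover tested members only, and listed genes absent from the table are not in them. Apart from the panel and the lists, the rule skipped predicted, RIKEN, ribosomal protein and microRNA genes. Another 32 genes were named after their values were seen. The genes and lists were chosen with earlier results of these data known. Not every gene taken by the rule is reported. Gene positions are from GENCODE M21 and promoters from RefSeq (GRCm38.p6), matched by symbol.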

Additional observations from a re-analysis of the deposited data

Results flagged for a closer look

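For 263 named genes, the 6 untreated libraries were searched for 1 library far from the others, by the gap to its nearest neighbour over the range of the group against Dixon's 95% critical value. Chance flags about 1 in 20 groups, and 10 of 263 (3.80%) were found. Untreated replicate 4 was the distant library for Azin2 (2.80, next 7.54), Klhl6 (459.5, next 377), Syvn1 (495.9, next 590.4), Cox7a2 (1191, next 1075) and Glb1 (921.8, next 841). That library held the fewest reads of all 15 (2682564), and 1 read there has a value of 2.80, that of Azin2. Its root mean square log2 difference from each other untreated library was 0.37 to 0.41, against 0.22 to 0.33 among the others. Untreated replicate 6 was the lowest for Mcm3 (1443, next 1496) and the highest for Cp (1.95, with the others at the floor of 1). Untreated replicate 1 was the highest for Casp1 (565.9, next 510.0) and Clec4e (79.2, next 60.4). For Pparg it was replicate 3 (12.1, next 3.52). Without the distant library, the call of each of these genes other than Pparg was kept, with adjusted p from 3.15e-06 for Azin2 to 0.0212 for Syvn1. Pparg was not tested without replicate 3, since fewer than 3 libraries then reached a value of 10.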

How the results depend on the processing

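Of 255 named genes that passed, 204 passed under each of the 20 other settings in which they were tested and 51 did not under at least 1, most often without IL4 replicate 2 (36 genes), without IL4 replicate 1 (26), without IL4 replicate 3 (18) and with each library rescaled to the same total (18). None changed direction. Leaving out 1 of the 9 IL4 and untreated libraries at a time gave 702 to 1091 higher and 428 to 777 lower genes, and 67 to 90 higher and 26 to 37 lower by at least 2-fold. The fewest genes in either direction were called without IL4 replicate 2. Of all 1917 genes that passed, named or not, 1111 still passed without IL4 replicate 2. With each library rescaled to the same total 1560 of them did. The named genes include those taken for the largest changes, which favours calls that are kept, so their share is not that of all calls. Rescaling to the same total gave 1448 lower genes, and array weights, chosen after seeing the data, gave 1233. The count at least 2-fold lower was 13 with a pseudocount of 5 and 16 with a minimum value of 50 in place of 10; both settings shrink or remove low genes. Csf1r, Tlr4, Nos2 and Ptgs2 did not pass with all libraries and passed in at least 1 other fit. For the settings other than those 2 the cause was not tested. Among the genes compared with LPS+IFNg directly, the calls of Cish, Cd74, Ms4a7 and Efr3b changed without LPS+IFNg replicate 3, a comparison added after seeing the data. The fit of the 9 libraries alone gave 1422 higher and 1077 lower genes. Count-based tests with edgeR and DESeq2 were not run, because values at the floor of 1 cannot be traced to whole reads. No paired analysis was possible because the labels give the libraries no replicate numbers.

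Depth limits genes of few reads: the floor of 1 stands for up to 2 reads in untreated replicate 6, and Arg1, Socs1, Cp and Ccl7 had 4, 6, 5 and 11 reads over the untreated libraries.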
